A study of Saccharomyces cerevisiae with 12 samples.

Results

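The response of glucose-consuming cells to a pulse of hydroxymethylfurfural (HMF) and furfural was described across all annotated genes, by setting the 3 glucose pulse arrays against the 3 glucose control arrays. These are 6 of the 12 arrays of the series, chosen by their labels alone. The other 6, the xylose pulse and the xylose control, entered the estimate of the spread and a comparison of the responses at the end. Of 5705 probe sets on the array's deposited table, 5489 were paired with 1 gene each and compared, and they stand for 5444 genes.

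The cells were Saccharomyces cerevisiae VTT C-10883, a MATα strain of the CEN.PK background. All groups carry the same alleles, namely MAL2-8c, SUC2, the Scheffersomyces stipitis genes XYL1 and XYL2 at the URA3 locus together with an intact URA3, and an overexpressed XKS1, so that xylose can be used after glucose. The glucose pulse group was given HMF to 3.9 g/L together with furfural to 1.2 g/L during anaerobic batch growth on glucose and was sampled 1 hour later. Each group came from 3 individual bioreactors. The glucose control group was without inhibitors. The sources name samples from just before the pulse as well as a cultivation with no pulse, and the labels say only that these arrays are controls. The pulse and 1 further hour of cultivation can therefore not be told apart if the controls are the earlier samples. A single engineered strain, 1 dose and 1 time were measured.

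Furan aldehydes are formed when sugars are dehydrated during the acid treatment of lignocellulose. Yeast reduces them to the less toxic alcohols at the expense of NADH and NADPH. As reactive aldehydes they can damage proteins, membranes and nucleic acids, and cells exposed to them grow more slowly until they are converted. The genes described below are therefore arranged by what their products do, from the removal of damaged protein and the membranes to nutrient uptake, carbon and nitrogen metabolism, and the cell cycle.

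The identity of the cells was checked on marker genes. The α-specific genes STE3, MF(ALPHA)1, MF(ALPHA)2 and SAG1, which encode the a-factor receptor, the α-factors and α-agglutinin, had log2 values between 9.58 and 13.58 on the 3 pulse arrays and between 12.27 and 13.53 on the 3 control arrays. The a-specific genes STE2, MFA1, MFA2, BAR1, AGA2 and ASG7 lay between 2.57 and 5.74 on the pulse arrays and between 2.53 and 5.61 on the control arrays. STE6, the exporter of a-factor, was brighter than these, at 7.22 to 7.38 after the pulse and 5.94 to 6.20 in the control. AFB1 had been placed with the a-specific genes by mistake, since its product, a barrier to a-factor, is made by α cells. Its values of 10.03 to 10.38 after the pulse and 11.99 to 12.05 in the control go with the α-specific genes. All 7 markers of anaerobic growth, such as DAN1 and TIR4, were between 10.83 and 14.04 on the pulse arrays and between 11.62 and 14.00 on the control arrays, and none of them was called. XKS1 had log2 values of 13.36 to 13.43 after the pulse and 13.72 to 13.88 in the control.

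Values are log2 expression from robust multi-array averaging (RMA). A probe set was called higher or lower in the glucose pulse at a Benjamini-Hochberg adjusted p under 0.01 from limma where its log2 fold change also exceeded 1 in size, the thresholds of the study. Of 5489 probe sets, 1161 (21.2%) were called, 637 of them (11.6%) higher and 524 (9.55%) lower. The middle 50% of all log2 fold changes lay between -0.42 and 0.52, with a median of 0.03, the lowest 1% lay below -2.38 and the highest 1% above 3.11. The increases reached further than the decreases. Among the called probe sets, 161 had a log2 fold change above 2 and 97 below -2, whereas 25 exceeded 4 and 3 were below -4. For 3921 probe sets (71.4%) the 3 pulse arrays lay entirely above or entirely below the 3 control arrays, so that a lack of overlap was common and says little about a single gene. RMA scales the arrays to one another, so changes are relative within an array, and fewer cells in a state could not be told apart from less RNA per cell.

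**Figure D1:**
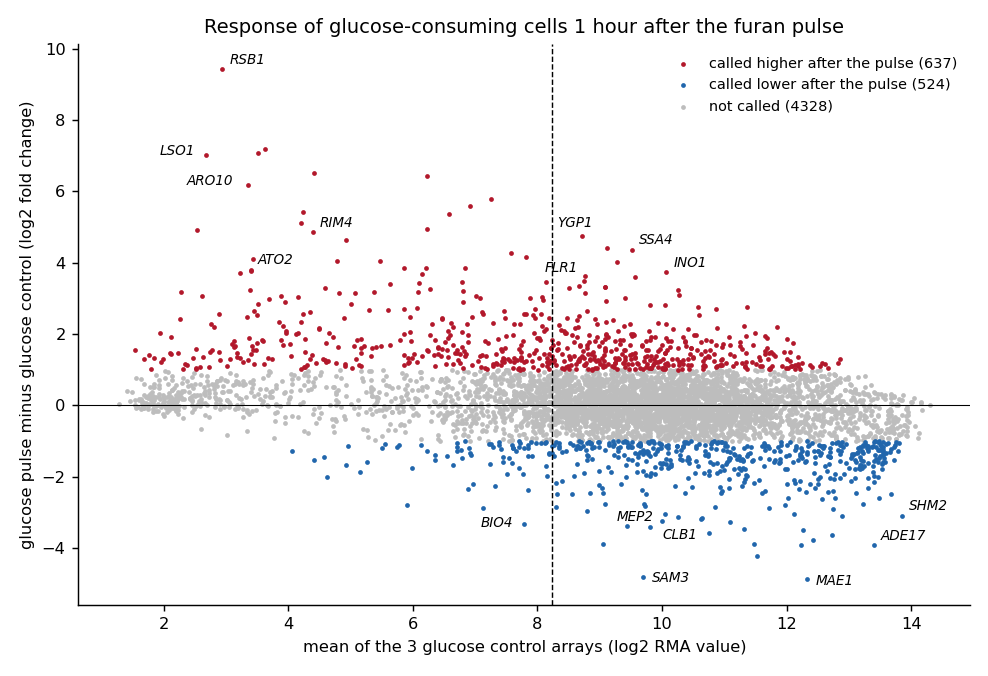
Log2 fold change, glucose pulse minus glucose control (vertical axis), of each of 5489 probe sets against its mean on the 3 glucose control arrays (horizontal axis, log2 RMA value). Red points (637) were called higher and blue points (524) lower after the pulse, and the dashed line marks the lower quartile of all deposited values, 8.24. The largest increases stand left of that line, whereas SAM3 and MAE1, with the largest decreases, stand right of it.

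The increases and the decreases started from different levels. The lower quartile of all deposited values was 8.24, and 305 of the 637 probe sets called higher had a control mean at or under it. Of the 524 called lower, 174 had a pulse mean at or under it. The deposited values carry no detection call, so whether such dim probe sets lie above background was not tested. With both means above the quartile, 332 probe sets were higher and 350 lower. The size of an increase from a dim control is uncertain for the same reason.

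**Figure D2:**
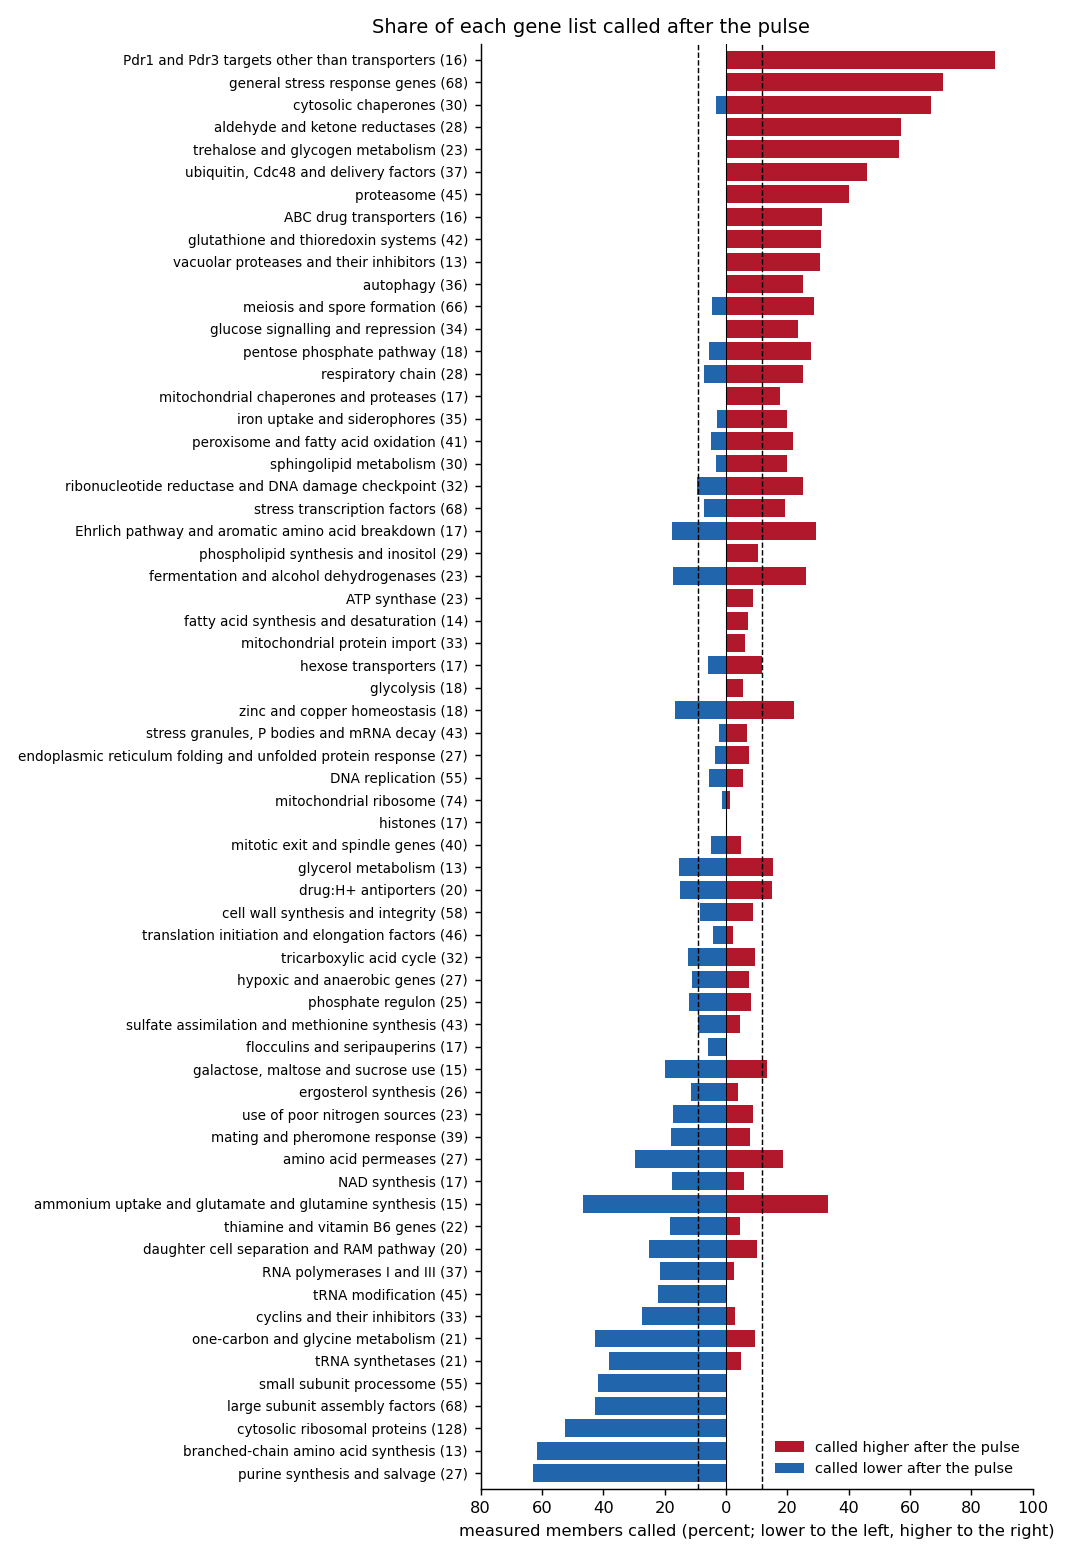
Share of the measured members of each gene list that was called higher (red, to the right) or lower (blue, to the left) in the glucose pulse against the glucose control, with the number of measured members in parentheses. The dashed lines mark the shares over all 5444 genes. The lists of Pdr1 and Pdr3 targets, general stress genes and cytosolic chaperones reach furthest to the right, and those of ribosomes and of purine and branched-chain amino acid synthesis far to the left.

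Many genes for the handling of damaged protein rose, beyond those of the proteasome itself. Of 37 genes of ubiquitin attachment, of the Cdc48 segregase and of delivery to the proteasome, 17 rose and none fell, and the median of their log2 fold changes was 0.86, against 0.03 over all 5444 genes, of which 633 were higher and 504 lower. DDI1 encodes a shuttle protein that brings ubiquitinated substrates to the proteasome. Its log2 values were 12.17, 11.94 and 11.93 on the pulse arrays, against 8.50, 8.54 and 8.96 on the control arrays. The groups were far apart, and the log2 fold change was 3.35 with a standard error (SE) of 0.11 and an adjusted p of 7.1e-11. UBC5, a ubiquitin-conjugating enzyme, had 11.22, 11.39 and 11.40 after the pulse, against 8.89, 9.04 and 8.82 in the control, and rose by 2.42 (SE 0.11, adjusted p = 6.6e-10). The Cdc48 adaptor genes UBX5 and UBX6 rose by 2.23 and 2.08, the cofactor genes UFD1 and NPL4 by 1.91 and 1.78, and the polyubiquitin gene UBI4 by 1.85. CDC48 itself had log2 values of 14.00, 13.85 and 13.88 after the pulse and 13.38, 13.30 and 13.37 in the control. Its arrays did not overlap, but at 0.56 (adjusted p = 1.9e-05) the difference was below the threshold on fold change. The adaptors and the ubiquitin gene thus passed the thresholds while the segregase did not. Without glucose control replicate 1, without glucose pulse replicate 2 or after a second quantile normalization, 1 gene of the list was also called lower.

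Genes of autophagy, by which cytoplasm and organelles are carried to the vacuole, went the same way. Of 36 measured, 9 rose and none fell, against 633 and 504 of all 5444 genes, and the median of the 36 was 0.62. ATG40 encodes the receptor for the degradation of endoplasmic reticulum. It had 11.59, 11.60 and 11.62 on the pulse arrays and 7.86, 8.39 and 8.18 on the control arrays, a log2 fold change of 3.46 (SE 0.11, adjusted p = 3.9e-11). ATG8, the ubiquitin-like protein of the autophagosome membrane, had 12.48, 12.14 and 12.11 after the pulse and 10.06, 10.07 and 9.66 in the control, and rose by 2.31 (SE 0.16, adjusted p = 4.9e-08). ATG5 rose by 1.79. The other receptor gene for endoplasmic reticulum and nuclear envelope, ATG39, rose by 1.83 but was dim throughout, at 5.16 to 5.72 after the pulse and 3.53 to 3.65 in the control. ATG32, the receptor for mitochondria, had a log2 fold change of -0.01 and ATG36, the receptor for peroxisomes, 0.67. In the vacuole, 4 of 13 genes listed under proteases and their inhibitors rose and none fell. AMS1, which rose by 1.22, is 1 of these 4 but encodes a mannosidase. PRB1, proteinase B, had 12.67, 12.49 and 12.63 after the pulse, against 10.91, 11.10 and 10.87 in the control, a change of 1.63 (SE 0.09, adjusted p = 3.7e-09). TFS1, which encodes an inhibitor of carboxypeptidase Y, rose by 2.38, and PAI3, an inhibitor of proteinase A, by 2.07, whereas the genes of these 2 proteases, PRC1 and PEP4, had 0.58 and 0.71 and were not called. An enzyme and the inhibitors of others therefore rose side by side.

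Folding factors of the organelles gave fewer calls. For 27 genes of protein folding in the endoplasmic reticulum, 2 rose and 1 fell, at a median of -0.15. ERO1, the thiol oxidase, rose by 1.30 and EUG1, a relative of protein disulfide isomerase, fell by 1.13 on the log2 scale. KAR2, the Hsp70 of that compartment and the usual mark of the unfolded protein response, had 13.81, 13.85 and 13.84 after the pulse and 13.53, 13.53 and 13.47 in the control, a difference of 0.32 that was not called. HAC1, which encodes the factor behind that response, overlapped between the groups, at 12.68, 12.81 and 12.56 after the pulse and 12.55, 12.69 and 12.64 in the control, and its splicing was not measured here. Of 17 mitochondrial chaperones and proteases, 3 rose and none fell. PCP1, a rhomboid protease, rose by 1.97 and MDJ1, the Hsp40 partner of the mitochondrial Hsp70, by 1.45.

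**Figure D3:**
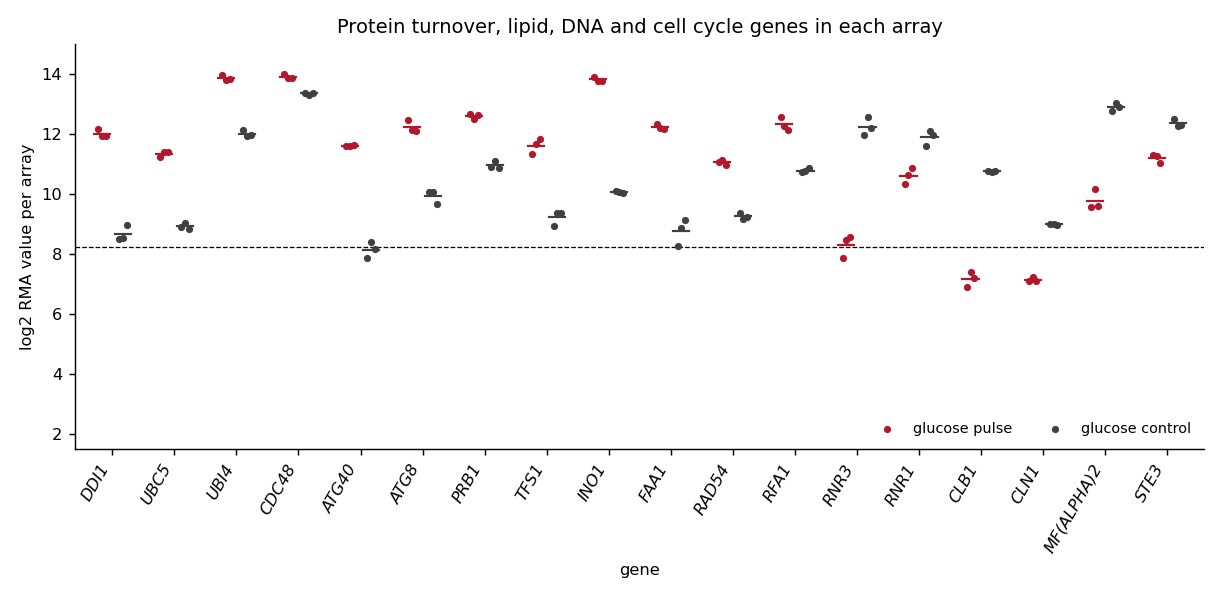
Log2 RMA value (vertical axis) of 18 genes (horizontal axis) on each glucose pulse array (red, left of each gene) and each glucose control array (dark grey, right). Dots are arrays, short bars are means of 3 arrays, and the dashed line is the lower quartile of all deposited values, 8.24. From DDI1 to RFA1 the pulse arrays lie above the control arrays, and from RNR3 to STE3 they lie below.

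Most genes of lipid metabolism were not called. INO1 encodes the enzyme that makes inositol phosphate from glucose 6-phosphate, the entry to inositol lipids. It had 13.91, 13.77 and 13.77 on the pulse arrays, against 10.11, 10.07 and 10.04 on the control arrays, a log2 fold change of 3.74 (SE 0.07, adjusted p = 1.1e-12). The 29 genes of phospholipid and inositol metabolism had a median of 0.53, against 0.03 over all 5444 genes. Of the 29, 22 had a log2 fold change above 0, against 2831 of all genes. Among them 2 genes besides INO1 were called higher and none lower. These were CDS1, the CDP-diacylglycerol synthase, with 1.11, and INO4, a regulator of the pathway, with 1.00, whose call was lost after centring on medians (1.00, as rounded), without glucose control replicate 2 (0.83) and without glucose pulse replicate 1 (0.93). FAA1, a long-chain acyl-CoA synthetase that activates imported fatty acids, had 12.33, 12.21 and 12.18 after the pulse and 8.28, 8.86 and 9.12 in the control. With a log2 fold change of 3.49 (SE 0.16, adjusted p = 7.8e-10) it was the only called gene among 14 of fatty acid synthesis and activation, and the desaturase gene OLE1 had -0.28. ARE2, which esterifies sterols, rose by 2.93 (SE 0.19, adjusted p = 2.2e-08).

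Ergosterol synthesis moved little, with 1 of 26 genes higher, 3 lower and a median of -0.25. The medium holds ergosterol, as anaerobic yeast cannot make it. The largest change in this group was that of ECM22, a transcription factor of sterol synthesis genes, with 8.05, 7.87 and 7.91 after the pulse, against 10.37, 10.08 and 10.14 in the control. Its log2 fold change was -2.25 (SE 0.12, adjusted p = 3.8e-09). In sphingolipid metabolism 6 of 30 genes rose and 1 fell, at a median of -0.01. RSB1 had the largest increase of all probe sets, at 9.42 (SE 0.10, adjusted p = 2.8e-15), from a dim control mean of 2.94. LCB5, a kinase of long-chain bases, rose by 1.52 and IPT1, which adds the last head group of the complex sphingolipids, by 1.81. YSR3, a phosphatase that acts on the phosphorylated long-chain bases, fell, with 8.26, 8.48 and 8.36 after the pulse and 10.07, 10.11 and 10.14 in the control (log2 fold change -1.74, SE 0.12, adjusted p = 3.1e-08). The kinase gene LCB5 and the phosphatase gene YSR3 thus moved in opposite directions, and YSR3 was the only decrease called in the list.

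Not every exporter of toxic compounds responded. Of 16 ABC transporters of the drug resistance type, 5 rose and none fell, and of 20 antiporters that exchange drugs or polyamines for protons, 3 rose and 3 fell. Over all 5444 genes 633 were higher and 504 lower, shares near those of the antiporters. FLR1 led the antiporters, at 12.49, 12.34 and 12.35 after the pulse, against 8.81, 8.78 and 8.69 in the control. The polyamine exporter genes TPO1 and TPO4 rose by 1.77 and 1.78. AQR1, an exporter of acids and amino acids, had 7.48, 8.13 and 7.89 after the pulse, against 9.38, 9.89 and 10.16 in the control, and fell, with a log2 fold change of -1.97 (SE 0.20, adjusted p = 1.4e-06).

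Nutrient uptake changed most on the nitrogen side. Of 27 amino acid permease genes, 8 fell and 5 rose, against 504 and 633 of all 5444 genes. SAM3, the permease of S-adenosylmethionine, had log2 values of 4.73, 4.92 and 5.0 on the pulse arrays, against 9.94, 9.50 and 9.63 on the control arrays. Its log2 fold change of -4.81 (SE 0.12, adjusted p = 3.7e-12) was the largest decrease but 1 of all probe sets, after MAE1. MMP1, the permease of S-methylmethionine and the nearest relative of SAM3, fell by 2.22 on the log2 scale, to 4.57 to 4.94 after the pulse, against 6.85 to 7.04 in the control. GAP1, the general amino acid permease, was at 4.97, 4.79 and 5.42 after the pulse and at 7.23, 7.53 and 7.16 in the control, a change of -2.25 (SE 0.21, adjusted p = 6.4e-07). AGP1, which carries many neutral amino acids, had 8.71, 9.15 and 9.19 after the pulse and 10.74, 11.30 and 11.20 in the control, a change of -2.07 (SE 0.22, adjusted p = 2.4e-06). Of the permease genes that rose, AGP3 had 2.08 but was dim, with means of 6.04 after the pulse and 3.97 in the control. MUP1 for methionine rose by 1.97 and BAP2 for branched-chain amino acids by 1.70. SAM3, GAP1 and MMP1 were at or under the lower quartile after the pulse, and with the dimmest 25% of probe sets left out 3 genes of the list were called lower.

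Genes of ammonium uptake and assimilation moved in both directions. Of 15 genes of ammonium transport and of glutamate and glutamine metabolism, 7 fell, 5 rose and 3 were not called, at a median of -0.98. MEP2, the high-affinity ammonium permease, had 6.75, 7.28 and 6.98 after the pulse, against 9.93, 10.41 and 9.80 in the control, a log2 fold change of -3.04 (SE 0.22, adjusted p = 7.8e-08). GLN1, glutamine synthetase, had 11.01, 11.39 and 11.14 after the pulse and 13.56, 13.72 and 13.74 in the control (-2.49, SE 0.11, adjusted p = 5.4e-10). GLT1, glutamate synthase, fell by 2.00 on the log2 scale and GDH1, the NADPH-dependent glutamate dehydrogenase, by 1.04. The enzymes that fell build glutamate and glutamine, while those that rose included some that take glutamate apart. GAD1, glutamate decarboxylase, rose by 2.29 and GDH2, the NAD-dependent dehydrogenase that releases ammonium, by 1.00. UGA1, a later transaminase of the same route as GAD1, which does not use up glutamate, rose by 1.07. GDH3, an isoenzyme of GDH1 that also builds glutamate, rose by 1.13. After a second quantile normalization 3 genes of the list were called higher. The related genes ATO3 and ATO2, whose products are thought to export ammonium, went opposite ways. ATO3 had 5.43, 6.13 and 5.92 after the pulse and 8.77, 8.85 and 8.73 in the control, whereas ATO2 had 7.17, 7.22 and 7.22 after the pulse and 3.41, 3.48 and 3.31 in the control. Their log2 fold changes were -2.96 (SE 0.18, adjusted p = 1.1e-08) and 3.80 (SE 0.09, adjusted p = 3.0e-12). ATO2 lay under the lower quartile in both groups, and ATO3 did so after the pulse.

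Among 23 genes for poor nitrogen sources, 4 fell and 2 rose, against 504 and 633 of all 5444 genes. With the dimmest 25% left out 2 of the 23 were called lower. The GATA factor genes GAT1, an activator, and GZF3, a repressor, fell together, by 1.52 and 1.40 on the log2 scale. ASP1, the cytosolic asparaginase, had 10.68, 10.85 and 10.78 after the pulse and 12.08, 12.35 and 12.33 in the control, a change of -1.48 (SE 0.12, adjusted p = 2.6e-07). The increases were those of proline breakdown. PUT1, proline oxidase, had 8.79, 8.90 and 8.84 after the pulse, against 4.87, 4.79 and 4.68 in the control, and PUT2, the next enzyme, rose by 1.92 (SE 0.08, adjusted p = 2.9e-10). Their activator gene PUT3 had 0.08 and the proline permease gene PUT4 0.06, with overlapping arrays. In sulfur metabolism only 2 of 43 genes rose and 4 fell, at a median of -0.05. SAM4, which uses S-adenosylmethionine to recycle homocysteine, fell by 2.28 on the log2 scale (SE 0.16, adjusted p = 6.2e-08) and ADI1, of the methionine salvage cycle, rose by 2.12 (SE 0.16, adjusted p = 9.3e-08).

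**Figure D4:**
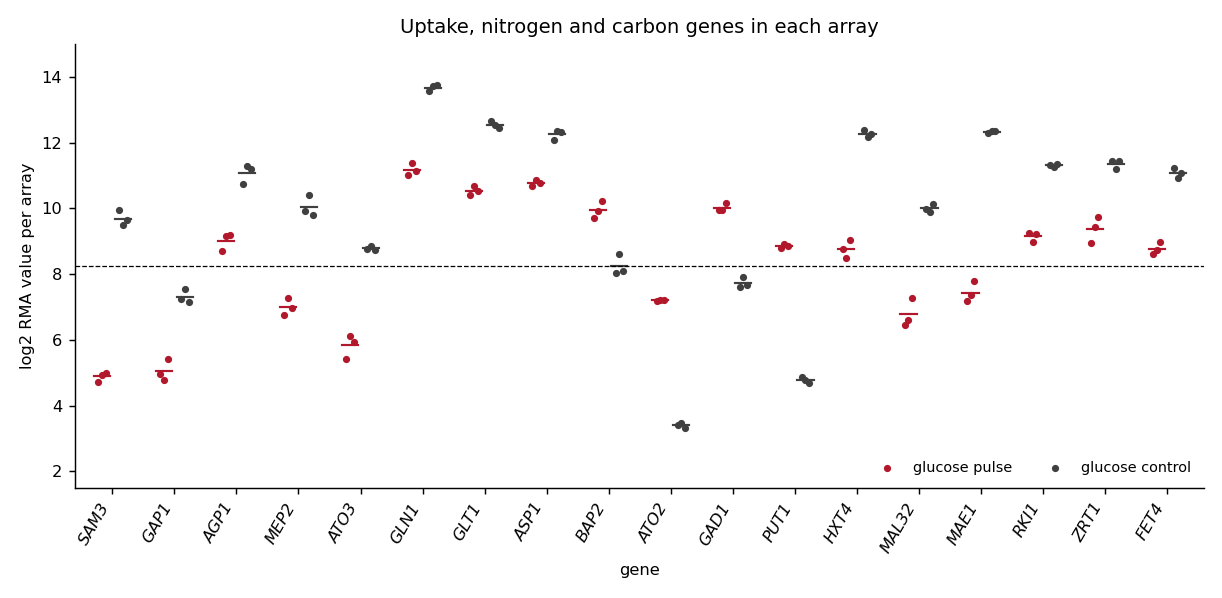
Log2 RMA value (vertical axis) of 18 genes of uptake, nitrogen and carbon metabolism (horizontal axis) on each glucose pulse array (red, left of each gene) and each glucose control array (dark grey, right). Dots are arrays, short bars are means of 3 arrays, and the dashed line is the lower quartile of all deposited values, 8.24. The pulse arrays lie below the control arrays for all genes shown except BAP2, ATO2, GAD1 and PUT1.

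In sugar transport, HXT4 fell and HXT9 and HXT11 rose among 17 hexose transporter genes, and with the dimmest 25% left out 1 was called higher. HXT4, a high-affinity transporter, had 8.75, 8.50 and 9.05 on the pulse arrays, against 12.39, 12.17 and 12.25 on the control arrays, a log2 fold change of -3.51 (SE 0.21, adjusted p = 1.2e-08). The main low-affinity transporter genes were not called. HXT3 overlapped between the groups, at 13.08, 13.50 and 13.48 after the pulse and 12.64, 13.06 and 13.11 in the control, and HXT1 had 11.38, 11.88 and 11.14 after the pulse and 11.97, 12.53 and 12.11 in the control, without overlap. The difference of -0.74 in HXT1 (adjusted p = 0.00554) ran in the direction of HXT4 and was short of the fold threshold. HXT9 and HXT11 are nearly identical, so their probes may read each other. In this strain, which carries MAL2-8c, 3 maltose genes fell. MAL32, maltase, had 6.45, 6.59 and 7.27 after the pulse, against 9.98, 9.89 and 10.14 in the control (-3.24, SE 0.18, adjusted p = 6.3e-09), and the transporter genes MAL11 and MAL31 had -2.32 and -1.30. Maltose genes occur in near-identical copies, which these probe sets may not separate.

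MAE1, the mitochondrial malic enzyme that makes pyruvate from malate, had the largest decrease of all. It read 7.17, 7.35 and 7.78 after the pulse, against 12.28, 12.34 and 12.34 in the control, a log2 fold change of -4.88 (SE 0.14, adjusted p = 1.6e-11). Of 32 genes of the tricarboxylic acid cycle and its feeding reactions, PYC2, ACO1 and IDH1 fell as well, with log2 fold changes of -1.58, -1.37 and -1.20, and 3 rose, of which the dim CIT3 lost its call after a second quantile normalization (0.95). With the dimmest 25% left out 1 was called higher. The shares of this list lay near those over all 5444 genes, of which 633 were higher and 504 lower. In the pentose phosphate pathway RKI1, ribose 5-phosphate ketol-isomerase, had 9.25, 8.97 and 9.22 after the pulse and 11.32, 11.26 and 11.36 in the control (-2.16, SE 0.12, adjusted p = 5.5e-09). Of the 18 genes of this pathway, 5 rose and 1 fell, and with the dimmest 25% left out, RKI1 included, none was called lower. RKI1 counted as dim only by its mean over all 12 arrays, with xylose-phase means of 7.48 after the pulse and 5.27 in the control. Among the increases were minor isoenzymes. SOL4, a lactonase of the oxidative branch, rose by 3.15, NQM1, a relative of transaldolase, by 2.91, TKL2, the second transketolase, by 2.49, GND2 by 1.77, and SOL1, a relative of SOL4, by 1.38, while the main counterparts SOL3, TAL1, TKL1 and GND1 lay between -0.49 and -0.09. SOL4 and TKL2 were dim in both groups, with means of 7.96 and 5.82 after the pulse and 4.82 and 3.33 in the control. NQM1 rose from a dim control mean of 6.80. Of 34 genes of glucose signalling 8 rose and none fell, and with the dimmest 25% left out 4 were called higher. ADR1, the activator of genes for non-fermentable carbon sources, had 7.01, 7.13 and 6.73 after the pulse and 4.14, 3.59 and 3.91 in the control, a change of 3.08 (SE 0.13, adjusted p = 5.4e-10).

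Although the cells grew without oxygen, 7 of 28 genes listed under the respiratory chain rose and 2 fell, at a median of 0.48. The decreases were those of CYC1 and of CYB5 (-1.58), the cytochrome b5 gene, whose product is not part of the chain. The cytochrome c genes parted. CYC7, the isoform of low oxygen, had 10.76, 10.50 and 10.56 after the pulse and 7.98, 7.86 and 8.34 in the control, a log2 fold change of 2.55 (SE 0.12, adjusted p = 8.8e-10). CYC1, the main isoform, had 6.41, 4.07 and 5.89 after the pulse and 7.16, 7.64 and 8.71 in the control, a change of -2.38 with a wide SE of 0.49 (adjusted p = 8.1e-04). COX5A, a subunit of cytochrome c oxidase, rose by 1.62 and QCR10, of the bc1 complex, by 1.55. Among 23 genes of ATP synthase, the subunits were not called. The 2 that rose encode INH1 and STF1, which inhibit the enzyme. INH1 had 9.67, 9.83 and 9.93 after the pulse, against 5.94, 6.30 and 6.17 in the control, a change of 3.67 (SE 0.10, adjusted p = 7.3e-12), and STF1 rose by 1.68. The mitochondrial ribosome had few calls beside the cytosolic one. Of the 74 genes in its list 1 rose and 1 fell, at a median of -0.07. None fell without glucose control replicate 2 or without glucose pulse replicate 1, and 2 fell without glucose pulse replicate 3. The increase was that of MRP8 (1.49), whose product is no longer counted as a ribosomal protein. Of 128 cytosolic ribosomal protein genes 0 were higher and 67 lower, at a median of -1.06. In the same direction as the cytosolic ribosome, 10 of 45 tRNA modification genes fell and none rose, led by the pseudouridine synthase genes PUS7 and PUS1 at -1.96 and -1.94 and the methyltransferase gene TRM1 at -1.83. With the dimmest 25% left out 4 were called lower, and without glucose control replicate 3 or without glucose pulse replicate 3 the list also had 1 gene called higher.

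In the peroxisome list 9 of 41 genes rose and 2 fell, and with the dimmest 25% left out 5 were called higher and 1 lower. FOX2, of fatty acid β-oxidation, rose by 1.84 and the membrane protein gene PEX30 by 1.81. PEX11, which promotes the division of peroxisomes, had 9.18, 9.71 and 9.51 after the pulse, against 11.04, 11.02 and 11.09 in the control, and fell by 1.58 on the log2 scale (SE 0.11, adjusted p = 5.0e-08). Metal uptake was mixed. ZRT1, the high-affinity zinc transporter, had 8.93, 9.43 and 9.74 after the pulse and 11.43, 11.20 and 11.45 in the control, a change of -1.99 (SE 0.17, adjusted p = 2.8e-07). ZRT2, their activator gene ZAP1 and FET4, a low-affinity transporter of iron and other metals, fell as well, with -1.66, -1.03 and -2.31. The copper transporter gene CTR3 rose by 2.33 from a dim control, and of 35 iron genes 7 rose and 1 fell (4 higher with the dimmest 25% left out), whereas the high-affinity iron genes FET3 and FTR1 had -0.19 and -0.28. For biotin, BIO3, BIO4 and BIO5 fell, whereas BIO2, the last enzyme of the synthesis, rose by 1.19. BIO4 had 4.30, 4.59 and 4.49 after the pulse and 7.73, 7.94 and 7.66 in the control (-3.32, SE 0.12, adjusted p = 9.9e-11), all under the lower quartile, and with the dimmest 25% left out no biotin gene was called lower.

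Cell cycle genes fell in part. Of 33 genes of cyclins and their partners 9 fell and 1 rose, at a median of -0.58. CLB1, a mitotic cyclin, had 6.90, 7.39 and 7.19 on the pulse arrays, against 10.78, 10.74 and 10.75 on the control arrays, a log2 fold change of -3.59 (SE 0.14, adjusted p = 2.1e-10). CLN1, of the start of the cycle, had 7.09, 7.22 and 7.11 after the pulse and 9.01, 8.99 and 8.98 in the control (-1.85, SE 0.12, adjusted p = 2.4e-08). CLB6, of the entry to S phase, fell by 1.98. Cyclins of early and late phases were therefore lower, and CLB2, a paralogue of CLB1, fell by 1.21, whereas CLN2 and CLB5 had -0.87 and -0.74 and were not called. With the dimmest 25% left out 3 genes were called lower and none higher, and 2 were called higher without glucose control replicate 2, without glucose control replicate 3 or without glucose pulse replicate 1. Histone genes were not called in any of 17 cases, at a median of -0.16, nor were most genes of replication (3 higher and 3 lower of 55) and of the spindle and mitotic exit (2 and 2 of 40). Of 20 genes of daughter cell separation 5 fell and 2 rose, with BUD9, a mark of the bud site, at -2.22. With the dimmest 25% left out, 3 genes of separation, 1 of replication and 1 of the spindle were called lower. Leaving out single arrays moved some of these small counts, to 5 replication genes higher without glucose pulse replicate 3, 1 spindle gene higher without glucose control replicate 1, and 1 separation gene higher without glucose control replicate 1 or glucose pulse replicate 1.

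The large subunit genes of ribonucleotide reductase fell, while some but not all DNA repair genes rose. RNR3, the large subunit that is made after DNA damage, had 7.87, 8.48 and 8.58 after the pulse, against 11.96, 12.55 and 12.19 in the control, a log2 fold change of -3.92 (SE 0.22, adjusted p = 5.8e-09). RNR1, the main large subunit, had 10.34, 10.62 and 10.88 after the pulse and 11.61, 12.10 and 11.98 in the control, and fell by 1.28. Several genes of recombination and excision repair rose. RAD54, a motor of homologous recombination, had 11.07, 11.13 and 10.95 after the pulse and 9.37, 9.15 and 9.24 in the control, a change of 1.80 (SE 0.10, adjusted p = 6.6e-09). RAD16 and RAD59 rose by 1.61 and 1.58, MAG1, a DNA glycosylase, by 1.43, and RFA1, the large subunit of the single-strand binding protein, by 1.55. The checkpoint genes RAD53 and DUN1 had 0.12 and 0.20, and HUG1, usually induced with RNR3, had 0.19. In the list that holds the reductase and repair genes, 8 of 32 rose and 3 fell, the other decrease being that of RAD55, a recombination mediator, at -1.38.

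Of the 4 α-specific markers named above, 3 fell. MF(ALPHA)2, the minor α-factor gene, had 9.58, 10.17 and 9.59 after the pulse, against 12.77, 13.03 and 12.89 in the control, a change of -3.11 (SE 0.14, adjusted p = 1.1e-09). SAG1 fell by 1.45, STE3 by 1.15 and AFB1 by 1.78. The major α-factor gene MF(ALPHA)1 overlapped between the groups, at 13.58, 13.49 and 13.43 after the pulse and 13.53, 13.27 and 13.25 in the control. The a-specific STE6 rose by 1.22 and lost its call after a second quantile normalization (0.94). Of 39 mating genes, 7 fell (4 with the dimmest 25% left out) and 3 rose. STE11, a kinase of the pheromone pathway, rose by 1.65, while FUS1, the usual mark of pheromone signalling, had -0.05. Cell wall genes had 5 higher and 5 lower of 58, shares no larger than over all 5444 genes (633 and 504). KNH1, of β-glucan assembly, fell by 2.83 and WSC4, a stress sensor of the surface, by 2.46 on the log2 scale, whereas GAS2, a glucanosyltransferase of spore walls, rose by 3.02. YGP1, a secreted glycoprotein made by cells that leave exponential growth, had 13.00, 13.74 and 13.66 after the pulse, against 8.51, 9.16 and 8.50 in the control. Its change of 4.74 (SE 0.26, adjusted p = 4.1e-09) was the largest in the list, and SPI1, another surface protein of slow growth, rose by 2.46.

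Regulators of stress and nutrient responses moved in both directions. Of 68 transcription factor genes 13 rose and 5 fell, at a median of 0.21, against 633 and 504 of all 5444 genes at a median of 0.03. YRR1, an activator of drug resistance genes, had 9.54, 9.27 and 9.48 after the pulse, against 7.19, 6.80 and 6.87 in the control, a change of 2.48 (SE 0.14, adjusted p = 6.3e-09). The stress regulator gene USV1 rose by 2.03 from a dim control, and TOS8, a homeodomain factor, by 1.58. CUP9, a repressor of peptide uptake, fell by 1.39 and TNA1, the nicotinic acid permease of another list, by 1.15 on the log2 scale. Without glucose pulse replicate 1, 3 of the transcription factor genes were called lower and TNA1 was not called (-0.99). Of 43 genes of mRNA decay and RNA granules 3 rose and 1 fell, smaller shares than over all genes. The decrease was that of NRD1, which ends the transcription of short non-coding RNAs, with 8.77, 8.76 and 8.84 after the pulse, against 10.78, 10.77 and 10.69 in the control, a change of -1.96 (SE 0.07, adjusted p = 1.8e-10). The gap between the groups was far wider than the spread within them. EDC2, an activator of decapping, rose by 1.91. Without glucose control replicate 2, without glucose pulse replicate 1 or after a second quantile normalization, 2 genes of that list were called lower, and with the dimmest 25% left out 1 was called higher.

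Genes of meiosis and spore formation, which haploid cells do not need, rose in 19 of 66 cases and fell in 3, at a median of 0.53. RIM4, an RNA-binding protein of early meiosis, had 9.43, 9.19 and 9.08 after the pulse, against 4.33, 4.59 and 4.24 in the control, a change of 4.85 (SE 0.12, adjusted p = 3.0e-12). SPO20, NDT80 and SHC1 rose by 3.05, 2.83 and 2.62, and stayed under the lower quartile, with pulse means of 7.21, 7.82 and 6.96. After a second quantile normalization 11 genes of the list were called higher, and with the dimmest 25% of probe sets left out 2.

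Called genes lay next to each other more often than genes in general did. Among the 5444 genes in chromosomal order, 191 of the 633 called higher (30.2%) had an adjacent measured gene that was also called higher, against 1178 of all genes (21.6%). For those called lower it was 131 of 504 (26.0%), against 958 of all genes (17.6%). This is a description without a test, and neighbours can share a promoter. There were 5 runs of 4 measured genes called higher and 1 run of 5 called lower. The run of decreases, on chromosome XIV, was HOL1, BIO5, BIO4, BIO3 and MNT4, with log2 fold changes of -1.22, -1.67, -3.32, -2.84 and -1.10. On chromosome VIII, ARO9 of aromatic amino acid breakdown stood beside YHR138C, SPS100 and YHR140W, which rose by 5.42, 2.54, 2.03 and 4.95. On chromosome IV, EMI1, GRX2, YDR514C and SLF1 rose by 1.11, 1.96, 1.58 and 1.46. The other runs of increases were REG2, RFS1, YBR053C and YRO2 on chromosome II and, on chromosome XII, GTT2, JLP1, YLL056C and YCT1 as well as CRR1, FRE1, CDC123 and CPR6.

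To find where glucose-consuming cells responded differently from xylose-consuming cells, the response to the same pulse in the xylose phase was subtracted from theirs. The comparisons share no arrays. The difference was called for 2134 of 5489 probe sets (38.9%), 1091 of them higher in the glucose phase and 1043 lower. In the xylose phase 649 probe sets (11.8%) were called higher and 460 (8.38%) lower. Called higher in both were 87, which is 13.7% of the increases in the glucose phase and 13.4% of those in the xylose phase, and called lower in both were 37 (7.06% and 8.04%). These shares lie near those over all probe sets, 11.6% and 11.8% for increases and 9.55% and 8.38% for decreases in the glucose and the xylose phase. Probe sets lower in the glucose phase and higher in the xylose phase numbered 128 (24.4% and 19.7%, against 11.8% of all higher in the xylose phase and 9.55% of all lower in the glucose phase), and 77 (12.1% and 16.7%) were higher in the glucose phase and lower in the xylose phase.

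The groups described above differed between the phases in this way. For protein delivery and Cdc48, 21 of 37 genes had a higher and 1 a lower response in the glucose phase, and for autophagy 20 of 36 and 1. Over all 5444 genes the difference was called higher for 1088 and lower for 1021. DDI1 had 3.35 in the glucose phase and -0.51 in the xylose phase, a difference of 3.86 (SE 0.16, adjusted p = 5.2e-10), and INO1 had 3.74 and -0.21, a difference of 3.96 (SE 0.10, adjusted p = 9.6e-12). For nitrogen assimilation the order was turned. MEP2 had -3.04 in the glucose phase and 2.97 in the xylose phase, a difference of -6.01 (SE 0.32, adjusted p = 3.6e-09), and GLN1 had -2.49 and 1.66. NRD1 had -1.96 and 2.19. YGP1 rose in the glucose phase by 4.74 and had -0.18 in the xylose phase. Its xylose-phase mean was 13.64 after the pulse and 13.82 in the control. The level without inhibitors was there already that of the pulsed cells of the glucose phase. INO1 had xylose-phase means of 13.25 after the pulse and 13.47 in the control, near its glucose pulse mean of 13.82. DDI1 had xylose-phase means of 10.41 and 10.92, above its glucose control mean of 8.67. For ergosterol, where 1 gene rose and 3 fell in the glucose phase, 18 of 26 rose in the xylose phase, and the difference was called lower for 18. Of the 87 probe sets called higher in both phases, 54 had no called difference. Drug resistance genes were among them, with PDR5, the main drug exporter, at 3.10 in the glucose phase and 3.82 in the xylose phase, a difference of -0.71 (SE 0.24, adjusted p = 0.0153), and YGR035C at 5.37 and 5.07, a difference of 0.30 (SE 0.22, adjusted p = 0.240). UBX6 had 2.08 and 2.09, with a difference of -0.01 (SE 0.20, adjusted p = 0.969), and ARE2 2.93 and 2.84, with a difference of 0.09 (SE 0.27, adjusted p = 0.776).

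**Figure D5:**
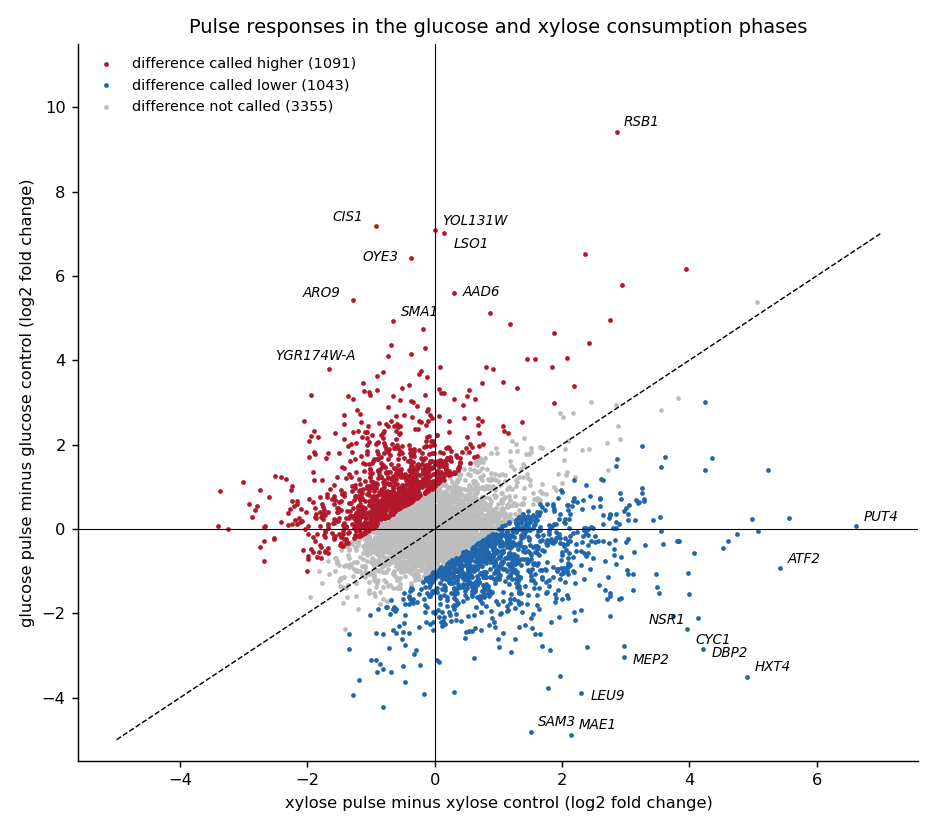
Log2 fold change in the glucose phase (vertical axis) against that in the xylose phase (horizontal axis), pulse minus control in each, for 5489 probe sets. Red points had a higher (1091) and blue points a lower (1043) response in the glucose phase by the test of the difference, the dashed line marks equal responses, and the labelled genes are those with the largest differences. Genes such as CIS1 and LSO1 rose in the glucose phase with little change or a decrease in the xylose phase, and HXT4, DBP2 and MAE1 did the opposite.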

How the data were processed

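The data are 12 arrays of the Affymetrix Yeast Genome 2.0 type, 3 for each of glucose pulse, glucose control, xylose pulse and xylose control, grouped by their labels. The authors corrected the background with RMA, normalized the arrays by quantiles, summarized probes by median polish and deposited the log2 values, with no counts, detection calls or scanner intensities used here, so that precision rests on the number of arrays. Gene names came from the platform annotation and from the RefSeq table of assembly R64, which was used for names and gene order only. Of 5705 probe sets, 216 with no gene name were not compared.

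A model with 4 group means was fitted in limma 3.58.1 (R 4.3.3, 8 residual degrees of freedom), with Benjamini-Hochberg adjustment over all 5489 probe sets. Calls needed a log2 fold change beyond 1 in size and an adjusted p under 0.01. The difference between the phases was an interaction contrast. The fit was tested on simulated data. A gene of several probe sets was represented in list counts and in counts of genes by the one with the highest mean over all 12 arrays. Counts and lists were computed with numpy 2.4.6 and pandas 2.3.3 under Python 3.11.15, and the plots drawn with matplotlib 3.10.9.

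The members and the 71 gene lists were chosen with earlier results of these data known, so the lists are described by counts and medians. Genes were named by rule, and not every gene under the rule is described. The rule took the 12 largest called changes in each direction with both means above the lower quartile, and the 10 largest of all. It also took up to 4 called members of each list with the regulators. The 10 largest differences between phases in each direction and the strain markers were added. All other genes named in the text, such as CDC48, KAR2, GLT1, HXT1, RNR1 and the members of the runs, were chosen after their values were seen. Deviations from the group means of same-numbered pulse and control arrays correlated at 0.474, 0.381 and 0.145 in the glucose phase, each above 0.1, so the replicate number was also fitted as a block. Where nothing says which control culture belongs to which pulsed culture, a p measures the spread between these samples. Promoter motifs were not examined here.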

Additional observations from a re-analysis of the deposited data

Results flagged for a closer look

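The responses of the phases differed, by limma's test of the difference, for 1091 probe sets with a higher and 1043 with a lower response in the glucose phase. The 10 largest differences in each direction were as follows. Higher in the glucose phase were CIS1 with a difference of 8.10 on the log2 scale, YOL131W with 7.09, LSO1 with 6.86, OYE3 with 6.80, ARO9 with 6.70, RSB1 with 6.55, SMA1 with 5.58, YGR174W-A with 5.43 and 5.13 on its 2 probe sets, and AAD6 with 5.29. These genes had risen in the glucose phase. The dubious open reading frame YGR174W-A had log2 fold changes of 3.78 and 3.18 there and of -1.66 and -1.95 in the xylose phase. SMA1, of spore membrane assembly, had 4.92 and -0.65. Without inhibitors, OYE3, CIS1 and YOL131W already had xylose control means of 12.43, 9.35 and 9.92, against glucose control means of 6.23, 3.63 and 3.51. AAD6 differed less, with 7.11 and 6.91.

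Lower in the glucose phase were HXT4 with a difference of -8.42, DBP2 with -7.07, MAE1 with -7.02, PUT4 with -6.57, ATF2 with -6.37, CYC1 with -6.34, SAM3 with -6.32, NSR1 with -6.24, LEU9 with -6.18 and MEP2 with -6.01. Most of these paired a decrease in the glucose phase with an increase in the xylose phase. DBP2, an RNA helicase, had -2.86 and 4.21, and NSR1, a nucleolar protein, had -2.12 and 4.13. PUT4 and ATF2, an alcohol acetyltransferase, were not called in the glucose phase (0.06 and -0.93) and had 6.62 and 5.43 in the xylose phase.

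Among the 216 probe sets that have no gene name in the annotation, 39 (18.1%) were called higher and 22 (10.2%) lower after the pulse in the glucose phase. They entered none of the counts over genes.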

How the results depend on the processing

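Over 21 alternatives, the number of probe sets called higher in the glucose phase lay between 463 and 676 and the number called lower between 363 and 581, and for the difference between the phases between 771 and 1155 and between 755 and 1069. The lowest counts came with the dimmest 25% of probe sets left out, which tests 4116. Without any 1 glucose array they were 637 to 669 and 520 to 533. With the replicate block 637 were called higher and 525 lower (1092 and 1048 for the difference), and the 637 and 524 of the fit without it were among them, so the pairing removed no call. A second quantile normalization gave 581 and 581, and of the 67 increases lost, 63 had a control mean at or under the lower quartile. Of 5639 settings of 272 named probe sets, 5609 kept their direction and their side of the thresholds, 20 lost their call and 10, all of uncalled genes, changed sign. After the second quantile normalization these were STE2 (-0.30), MFA2 (-0.25), BAR1 (-0.39), ASG7 (-0.39) and PUT4 (-0.43), without glucose control replicate 1 they were STE2 (-0.04), TIR1 (-0.12) and PUT4 (-0.02), and AGA2 read 0.12 both without glucose control replicate 2 and without glucose pulse replicate 1. With each glucose array left out in turn, STE2 ranged between -0.04 and 0.27, TIR1 between -0.12 and 0.48, PUT4 between -0.02 and 0.13 and AGA2 between -0.09 and 0.12. The cause was not tested. Of 2982 list counts, 74 moved by more than 1.5 times, 31 of them with the dimmest 25% left out. Leaving out the xylose arrays in turn was chosen after seeing the data. Dim probe sets limit the size, and 3 arrays a group the precision, of single changes.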
